A study of Rattus norvegicus with 8 samples.

Results

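A set of 10 genes that send, receive or restrain interleukin-1 (IL-1) and interleukin-6 (IL-6) signals was followed in the Achilles tendon of rats that had rested after a run. They were chosen by gene symbol and are the ligands *Il1b*, *Il33* and *Il6*, the antagonist *Il1rn*, the receptors *Il1r1*, *Il1rl1*, *Il6r*, *Il6st* and *Osmr*, and the feedback inhibitor *Socs3*. These 10 genes were all among the 32883 genes of the count table, and 9 of them were among the 13937 genes that had enough reads to be tested. The gene left out by the low-count filter was *Il6*. Gene expression had been measured by sequencing polyadenylated mRNA from the whole right Achilles tendon, with 1 library per rat. All 8 rats were wild-type male SD rats, given in the methods as 8 to 10 weeks old. Of these, 4 ran uphill for 1 h on a treadmill and were killed 12 h after the run (12 h p.r.), and 4 caged rats that did not run were killed at the same time (NC). The comparison asked how these genes stood 12 h into the rest that followed the run. Total counts ran from 7350509 to 12951397 per rat. Of the tenocyte marker genes, 8 of 8 were tested and none of them was at 0 in any rat. The same held for the 7 skeletal muscle and 6 adipocyte markers in the count table, so this does not single out tendon. There were 3 rats that stood apart in RNA of neighbouring tissues. The summed skeletal muscle markers reached 53850 CPM (counts per 1e6 reads of the scaled library) in 12 h p.r. replicate 3 and lay between 1277 and 9482 CPM in the other rats, while the summed cartilage and bone markers reached 481 CPM in 12 h p.r. replicate 1 and 1293 CPM in NC replicate 3 against at most 128 CPM elsewhere.

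IL-1β binds IL-1 receptor type 1, which then recruits an accessory chain and activates the transcription factor NF-κB through MyD88 and IRAK kinases. The protein of *Il1rn* occupies the same receptor without signalling. IL-33 is held in the nucleus of stromal and endothelial cells, is released on damage, and acts on ST2, the product of *Il1rl1*, on mast cells and other leukocytes. IL-6 binds its own receptor chain, in the membrane or in soluble form, and the complex then engages gp130, the product of *Il6st*, a chain that is shared by nearly all cytokines of the family and that activates STAT3 through JAK kinases. Oncostatin M uses gp130 together with the product of *Osmr*, and *Socs3* is induced by STAT3 and blocks gp130 signalling. In tendon these cytokines are known as regulators of matrix breakdown and repair.

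The ligands *Il33* and *Il6* stood near the opposite ends of the expression range given below, and the DNA just before their annotated starts is shown for that contrast. The windows are the 250 bases upstream of the start that RefSeq annotates in the assembly GRCr8, read 5′ to 3′ on the strand of the gene, with motif matches in capitals. Positions are counted back from the base before the start, which is −1. In the *Il6* window (chr4:5894576-5894825, minus strand) the capitals mark a CRE (TGACGTCA) at −162 to −155, a C/EBP match (TTGCNNAA, here on the opposite strand) at −152 to −145 and a κB match at −68 to −59. In the *Il33* window (chr1:237134696-237134945, plus strand) they mark a C/EBP match at −92 to −85 and a TATA box (TATAAA) at −29 to −24.
Il6: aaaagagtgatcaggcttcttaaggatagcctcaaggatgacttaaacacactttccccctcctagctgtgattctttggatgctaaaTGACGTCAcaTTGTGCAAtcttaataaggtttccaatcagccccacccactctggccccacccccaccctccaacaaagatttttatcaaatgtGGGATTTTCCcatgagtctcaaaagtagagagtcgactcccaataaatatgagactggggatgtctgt
Il33: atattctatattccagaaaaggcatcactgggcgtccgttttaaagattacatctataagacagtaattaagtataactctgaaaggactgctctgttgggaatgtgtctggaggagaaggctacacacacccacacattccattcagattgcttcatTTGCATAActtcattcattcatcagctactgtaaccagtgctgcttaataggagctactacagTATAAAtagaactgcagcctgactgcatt
Searched on both strands of 33469 rat windows of this length, the CRE was found in 1.59%, the κB motif in 3.54%, the C/EBP motif in 9.22% and the TATA box in 12.9%. None of the matches in the windows printed overlapped another. The 10 genes had 11 such windows, *Il33* having a second one with no match. The κB motif was also in the windows of *Il1r1* and *Socs3*, and the TATA box, on either strand, in those of *Il1b*, *Il1rn* and *Il1rl1*. The STAT motif TTCNNNGAA, held by 7.67% of all windows, was in none of the 11, and the AP-1 motif TGANTCA, held by 6.34%, was in that of *Osmr* alone. A match is a description of the letters in the window.

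Compared per gene length, *Il6st* and *Il33* were the most abundant members, and *Il1b*, *Il1rn*, *Il1rl1* and *Il6* the least. The values here are deposited FPKM, which are reads per kilobase of gene scaled by 1 factor per rat. *Il6st* had a mean of 108 FPKM over the 8 rats, higher than 94.8% of the genes tested, and *Il33* had 73.7 FPKM, higher than 92.4%. *Il1r1* followed with 19.1 FPKM, *Osmr* with 13.5, *Socs3* with 11.1 and *Il6r* with 8.07 FPKM. The lowest tier but for *Il6* held *Il1b* with 1.77 FPKM, *Il1rn* with 1.37 and *Il1rl1* with 1.33 FPKM, the first of which exceeded 14.6% of the genes tested. *Il6* was last with 0.113 FPKM, and the mean of *Il6st* was 962 times as high. Across all 8 rats, the lowest *Il6st* value exceeded the highest *Il33* value, and the ranges were likewise separate between *Il33* and *Il1r1*, between *Il6r* and *Il1b*, and between *Il1rl1* and *Il6*. The other neighbours in the order had overlapping ranges. *Il1r1* was nevertheless above *Osmr* within each of the 8 rats and *Socs3* above *Il6r* within 7, while *Osmr* exceeded *Socs3* in 5 of 8 rats and *Il1rn* exceeded *Il1rl1* in 5 of 8, so these last neighbours were not separated. The order of all 10 genes was the same when CPM per gene length replaced the deposited FPKM. That length was itself derived from the deposited FPKM, so the change affected only the scaling factor of each rat. It could not reorder genes within a rat and is no independent check of the order.

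**Figure D1:**
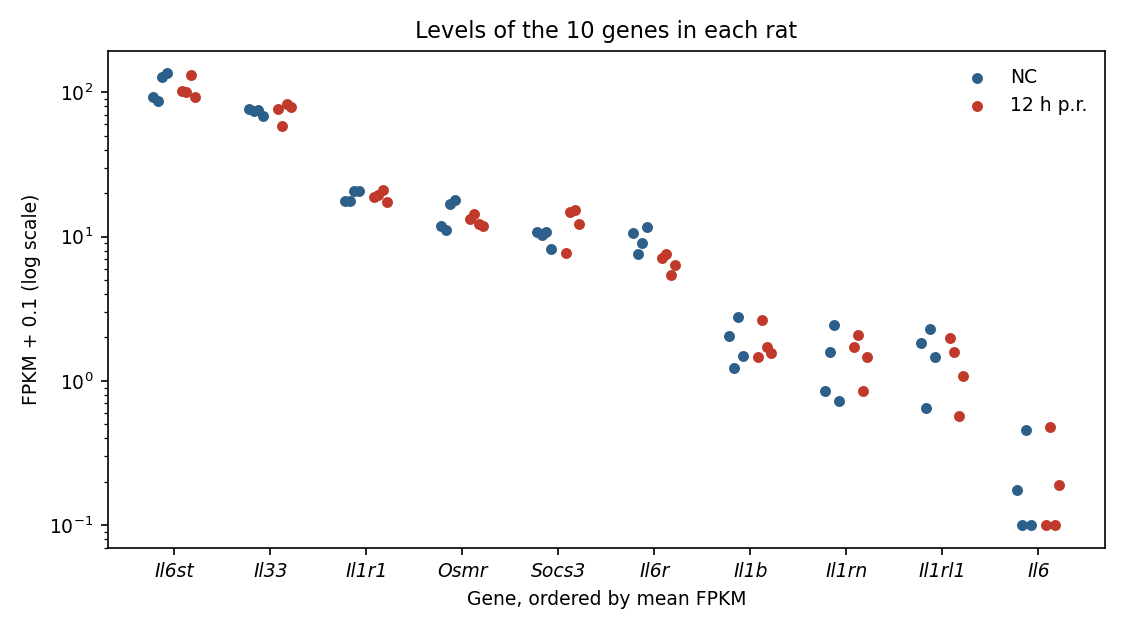
FPKM of the 10 genes in each rat, plotted as FPKM + 0.1 on a logarithmic axis, with genes ordered by their mean over the 8 rats and points coloured by group (NC, blue; 12 h p.r., red). The genes span from *Il6st*, with a mean of 108 FPKM, to *Il6*, which had no reads in 4 of the 8 rats and lies at the pseudocount there.

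At 12 h p.r., 1 of the 9 tested genes, *Il6r*, differed from NC at an unadjusted p under 0.05, and none passed an adjusted p of 0.05 by the quasi-likelihood test of edgeR (adjustment after Benjamini and Hochberg, made over the 13937 genes). Over all genes, 9.51% had an unadjusted p under 0.05 (5.44% higher and 4.08% lower after the run) and 0.00718%, a single gene, passed the adjusted threshold. The fitted log2 fold change was above 0 for 4 of the 9 genes and below 0 for 5, with a median of −0.05, beside 0.02 over all genes tested. The CPM of the running and the caged rats did not overlap for 1 of the 9 genes, again *Il6r*, and for 6.06% of all genes (3.52% with the running rats higher and 2.55% with them lower). The Wald test of DESeq2, which called 0.699% of its genes at an adjusted p under 0.05, also called none of the 9 and had 1 of them at an unadjusted p under 0.05, where 9.33% of all genes were.

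**Figure D2:**
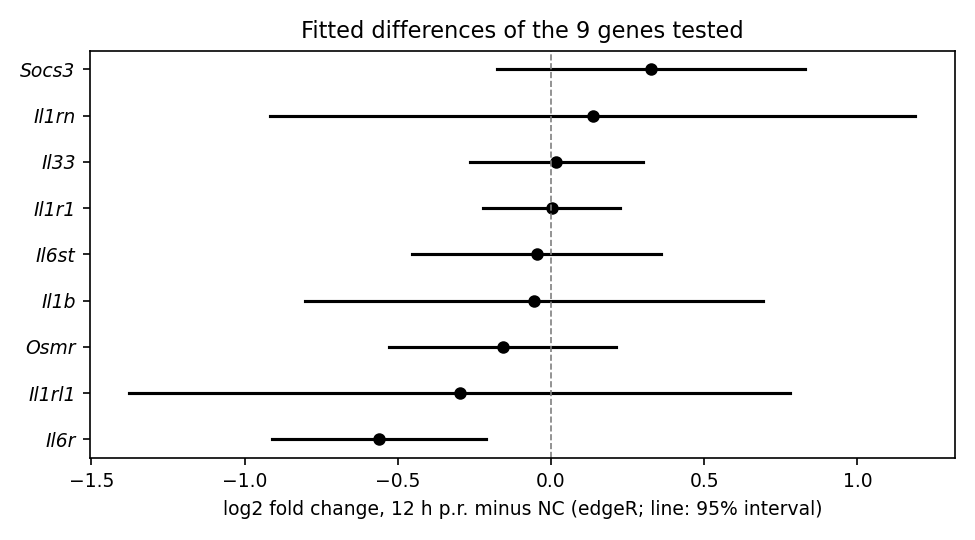
Fitted log2 fold change (12 h p.r. minus NC) of the 9 tested genes from edgeR, with lines for the 95% interval. The interval of *Il6r* lies below 0, from −0.91 to −0.21, and the other 8 include 0.

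Among the ligands, *Il6* was at the edge of detection. The reads of *Il6* (ENSRNOG00000010278) numbered 0, 3, 0 and 1 in the 12 h p.r. rats and 1, 0, 5 and 0 in the NC rats. Each group thus held 2 rats with reads and 2 without, and the groups overlapped. Pooled over rats, this was 4 reads or 0.116 CPM (95% exact Poisson interval, 0.0317 to 0.298) at 12 h p.r. and 6 reads or 0.131 CPM (0.0482 to 0.286) in NC. The ratio of 12 h p.r. to NC was 0.885, with a counting interval of 0.184 to 3.73, so a difference within that range was not detectable at this depth. In the rats with 0 reads, the level that 3 reads would have given ran from 0.255 to 0.388 CPM, and all these intervals and limits cover counting error only.

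*Il1b* (ENSRNOG00000004649), the IL-1 ligand made mainly by myeloid cells, had 1.94, 3.56, 2.26 and 2.07 CPM in the 12 h p.r. rats and 2.73, 1.59, 3.78 and 1.95 CPM in the NC rats. The groups overlapped almost fully, with the highest and the lowest value both in NC. The means were 2.46 ± 0.746 CPM (SD, n = 4) in the running rats against 2.51 ± 0.966 CPM (n = 4) in NC, with a fitted log2 fold change of −0.05 (standard error 0.33, 95% interval −0.80 to 0.69). The gene rested on 203 reads over the 8 rats, and its coefficient of variation of 32.2% compared with 19.9% from counting alone.

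*Il33* (ENSRNOG00000016456) was expressed at 191, 142, 202 and 195 CPM at 12 h p.r. and at 188, 182, 184 and 166 CPM in NC. Replicate 2 of the 12 h p.r. group was the lowest of the 8 rats, and the other 3 rats of that group were the highest. With 182 ± 27.1 CPM (SD, n = 4) against 180 ± 9.64 CPM (n = 4), the log2 fold change was 0.02 (standard error 0.12), and its 95% interval of −0.26 to 0.30 was among the narrowest of the members. The difference was smaller than the spread between rats in either group.

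The antagonist *Il1rn* (ENSRNOG00000005871) had 3.36, 4.08, 1.55 and 2.82 CPM at 12 h p.r. and 1.52, 3.07, 4.83 and 1.27 CPM in NC. NC replicate 3 was highest, as it was for *Il1b* and *Il1rl1*, and the groups overlapped. The log2 fold change was 0.14 (standard error 0.47, 95% interval −0.92 to 1.19), the widest interval but for that of *Il1rl1*. The FPKM ratio of the antagonist to *Il1b* was 0.843 ± 0.300 (SD, n = 4) at 12 h p.r. and 0.755 ± 0.433 (n = 4) in NC, with rats from 0.382 to 1.32.

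Of the IL-1 family receptors, *Il1r1* was the steadiest gene of the 9 and *Il1rl1* the least steady. *Il1r1* (ENSRNOG00000014504), the signalling receptor for IL-1α and IL-1β, had 74.9, 76.8, 83.1 and 68.5 CPM at 12 h p.r. and 69.2, 69.7, 82.2 and 81.8 CPM in NC. The groups covered the same range, and its coefficient of variation over the 8 rats was 8.15%, beside 3.63% from counting. Its log2 fold change was 0.00 (standard error 0.10, 95% interval −0.22 to 0.23). *Il1rl1* (ENSRNOG00000014835), which encodes ST2, had 6.73, 5.27, 1.67 and 3.47 CPM at 12 h p.r. and 6.17, 1.96, 7.78 and 4.84 CPM in NC. Both groups held low and high rats, and the coefficient of variation was 46.7%, beside 14.2% from counting. The log2 fold change was −0.30 (standard error 0.48, 95% interval −1.38 to 0.78), and it moved with single rats, from −0.60 without 12 h p.r. replicate 1 to −0.04 without 12 h p.r. replicate 3. The ligand of ST2 exceeded it in every rat, by an FPKM ratio of 34.3 to 176.

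The levels of *Il1rl1* were set beside those of the marker lists in each rat. The rat with the lowest *Il1rl1*, 12 h p.r. replicate 3, also had the lowest summed expression of 14 leukocyte markers, 855 CPM, and NC replicate 2 was second lowest in both, with 1160 CPM of these markers. Over the 8 rats the correlation of log2 CPM between *Il1rl1* and the mean of 13 tested leukocyte markers was r = 0.86 (Spearman's rho = 0.60), given as a description of 8 libraries. The mast cell markers had r = 0.57 (rho = 0.69) with *Il1rl1*, and the cartilage and bone markers had r = 0.69 (rho = 0.71). In whole tendon, fewer cells of a type and less RNA per cell cannot be told apart.

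In the rat genome several of the IL-1 family receptors lie in a row on chromosome 9 (gene order of GRCr8), apart from the histone gene *H3f3al3* after the first. Within that row only *Il1r1* was expressed at a high level. In that order, the FPKM means at 12 h p.r. and in NC were 1.66 and 2.11 for *Il1r2*, the decoy receptor, and 19.1 and 19.1 for *Il1r1*. They were 0.231 and 0.432 for *Il1rl2*, the IL-36 receptor, and 1.20 and 1.46 for *Il1rl1*. The IL-18 receptor chains *Il18r1*, with 0.426 and 0.400, and *Il18rap*, with 0.201 and 0.326, closed the row.

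*Il6r* was the gene that differed most between the groups. This gene (ENSRNOG00000020811), which encodes the IL-6-binding chain, had 32.5, 34.4, 24.5 and 29.1 CPM at 12 h p.r. and 48.5, 34.6, 41.4 and 53.1 CPM in NC. All running rats were under all NC rats, although the highest 12 h p.r. rat (replicate 2) and the lowest NC rat (replicate 2) nearly met, at 34.4 and 34.6 CPM. The group means were 30.1 ± 4.33 CPM (SD, n = 4) and 44.4 ± 8.12 CPM (n = 4). This was a fold change of 0.677 (95% interval 0.532 to 0.864), or a log2 fold change of −0.56 (standard error 0.15). The unadjusted p was 0.00546 and the adjusted p was 0.432 by the quasi-likelihood test of edgeR (Benjamini-Hochberg), and DESeq2 gave an adjusted p of 0.113. The difference thus did not pass the threshold across all genes. The 2-sided exact permutation test gave p = 0.0286, the smallest that 4 rats against 4 allow. Such a full separation with the running rats lower was seen in 2.55% of all genes tested.

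The lower value of *Il6r* was seen in each of 17 recomputations with other tests, scalings, filters or sets of rats, with log2 fold changes from −0.66 without NC replicate 2 to −0.46 without NC replicate 4 and unadjusted p from 0.00141 to 0.0363. The adjusted p ranged from 0.113 to 0.773. Without the 3 rats rich in muscle or cartilage and bone RNA, the log2 fold change was −0.52 (unadjusted p = 0.0363). That fit kept running rats at 34.4 and 29.1 CPM and NC rats at 48.5, 34.6 and 53.1 CPM. Leukocyte markers were also lower at 12 h p.r. on average. Of 13 tested, 12 had a log2 fold change below 0, 0 of them at an unadjusted p under 0.05. Over all 13937 genes tested, 6380 had a log2 fold change below 0. The sum of 14 leukocyte markers ran from 855 to 3168 CPM at 12 h p.r. and from 1160 to 4566 CPM in NC. Of these markers, the T cell gene *Cd3e* alone was at 0 in any rat, 12 h p.r. replicate 4. Across the 8 rats *Il6r* and the mean of the 13 had r = 0.80 (rho = 0.81). NC replicate 4 was highest in *Il6r* and in summed leukocyte markers, and 12 h p.r. replicate 3 was lowest in both. Mast cell markers were lower as well in 6 of 7 cases, 2 of them, *Cpa3* (log2 fold change −1.11, unadjusted p = 0.0124) and *Fcer1a* (−1.23, unadjusted p = 0.0477), at an unadjusted p under 0.05 but with adjusted p of 0.433 and 0.521. Over all genes tested, 4.08% were lower at an unadjusted p under 0.05. The sum of the 7 ran from 65.6 to 130 CPM at 12 h p.r. and from 100.2 to 152 CPM in NC, with 0 of them at 0 in any rat, and their mean had r = 0.56 (rho = 0.48) with *Il6r*. Neutrophil markers went both ways, with 2 of the 4 tested higher and 2 lower, 0 of them at an unadjusted p under 0.05. Their mean had r = −0.20 (rho = −0.31) with *Il6r*. The muscle markers had r = −0.64 and the endothelial markers r = −0.63 with *Il6r*. The part of leukocyte, mast cell or other content in the *Il6r* difference was not tested.

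**Figure D3:**
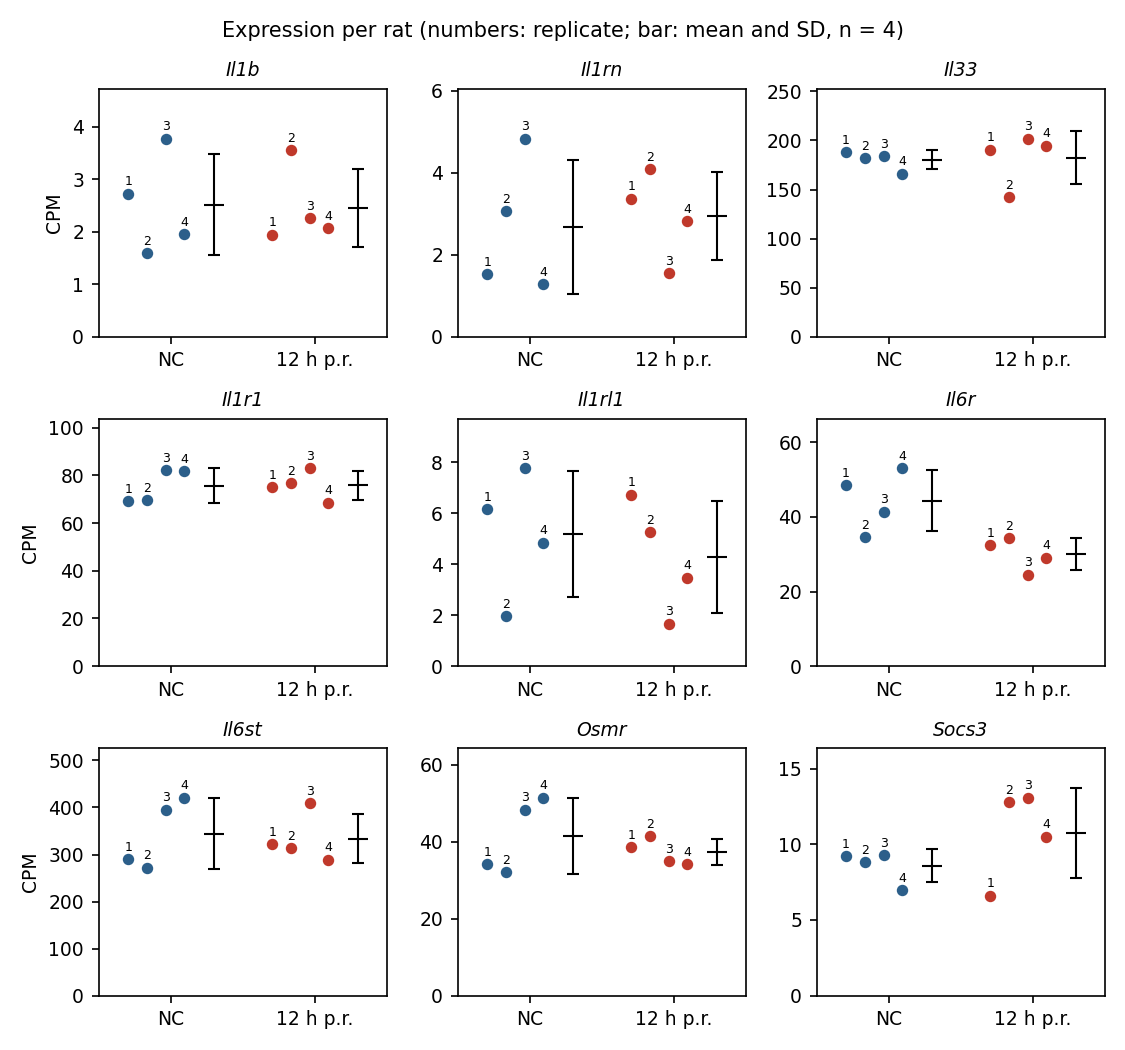
CPM of the 9 tested genes in each rat (points with replicate numbers; NC, blue; 12 h p.r., red), with the mean and SD of each group (n = 4) beside the points. *Il6r* is the panel in which the groups do not overlap, with 24.5 to 34.4 CPM at 12 h p.r. and 34.6 to 53.1 CPM in NC.

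*Il6st* (ENSRNOG00000013963), the shared gp130 chain, had 323, 313, 409 and 289 CPM at 12 h p.r. and 290, 272, 395 and 421 CPM in NC. The groups overlapped, and the highest rats were NC replicate 4 and 12 h p.r. replicate 3. The log2 fold change was −0.05 (standard error 0.18, 95% interval −0.45 to 0.36). The FPKM ratio of *Il6st* to *Il6r* was 14.7, 13.5, 24.7 and 14.7 at 12 h p.r. and 8.84, 11.6, 14.1 and 11.7 in NC. These means, 16.9 ± 5.23 (SD, n = 4) and 11.6 ± 2.15 (n = 4), lay apart by about the SD of the running group, and the ranges overlapped through 12 h p.r. replicate 2 and NC replicate 3.

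*Osmr* (ENSRNOG00000033192), the oncostatin M chain, had 38.6, 41.4, 35.0 and 34.2 CPM at 12 h p.r. and 34.2, 32.0, 48.3 and 51.5 CPM in NC. The NC rats fell into a lower and a higher pair, and the running rats lay between the extremes of NC. The log2 fold change was −0.16 (standard error 0.16, 95% interval −0.53 to 0.21), and it ran from −0.26 without NC replicate 2 to −0.04 without NC replicate 4. In NC the FPKM ratio of *Il6st* to *Osmr* was nearly constant, at 7.75 ± 0.165 (SD, n = 4), while at 12 h p.r. it ran from 7.04 to 10.9, the highest value being that of replicate 3, the rat rich in muscle RNA.

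The feedback inhibitor *Socs3* (ENSRNOG00000002946) had 6.60, 12.8, 13.1 and 10.5 CPM at 12 h p.r. and 9.22, 8.83, 9.29 and 6.97 CPM in NC. Replicates 2, 3 and 4 of the running group were above every NC rat, and replicate 1 was below them all. The means were 10.7 ± 2.99 CPM (SD, n = 4) and 8.58 ± 1.09 CPM (n = 4), with a fitted log2 fold change of 0.33 (standard error 0.22, 95% interval −0.18 to 0.83), with an adjusted p of 0.677 (edgeR, quasi-likelihood test, Benjamini-Hochberg). Without replicate 1 of the running group the log2 fold change was 0.50 (unadjusted p = 0.0161, adjusted p = 0.557), and without any other single rat it lay between 0.22 and 0.36. The 2-sided exact permutation test over all 8 rats gave p = 0.257.

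The rats differed in ways that crossed the groups. NC replicate 3 was the highest of 8 in *Il1b*, *Il1rn* and *Il1rl1*, NC replicate 4 in *Il6r*, *Il6st* and *Osmr*, and 12 h p.r. replicate 3 in *Il33*, *Il1r1* and *Socs3*. *Il1r1* and *Il6st* moved together over the rats (r = 0.95, rho = 0.83, n = 8), *Il1r1* being among the 2 genes most like *Il6st* of all those tested, and *Osmr* had r = 0.72 with each of them. Of all tested genes, the closest in pattern to *Il6r* were *Ahcyl1* (r = 0.98) and *Cltc* (r = 0.98), to *Il1rl1* *Ap1b1* (r = 0.98), to *Osmr* *Rasal2* (r = 0.97), to *Socs3* *Mzt1* (r = 0.96) and to *Il1b* *Atp6v1b2* (r = 0.95). *Nedd9* was closest to *Il1rn* (r = 0.97) and *Rsf1* to *Il1r1* (r = 0.98). *Cfd*, which encodes the adipocyte product adipsin, was second closest to *Il33* (r = 0.96). *Il33* had r = 0.81 with the mean of 6 adipocyte markers, *Cfd* among them, although the rank correlation was 0.33. It also had r = 0.77 with the neutrophil markers (rho = 0.83), 0.70 with the muscle markers (rho = 0.62) and 0.58 with the endothelial markers (rho = 0.69). The neutrophil mean rested on 4 genes with few reads over the 8 rats: *Csf3r* (94), *Cxcr2* (109), *S100a9* (123) and *Mpo* (567). With the leukocyte markers *Il33* had r = −0.50 (rho = −0.45). All these are descriptions over the same 8 libraries, and the closest genes were taken as the highest of 13937.

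**Figure D4:**
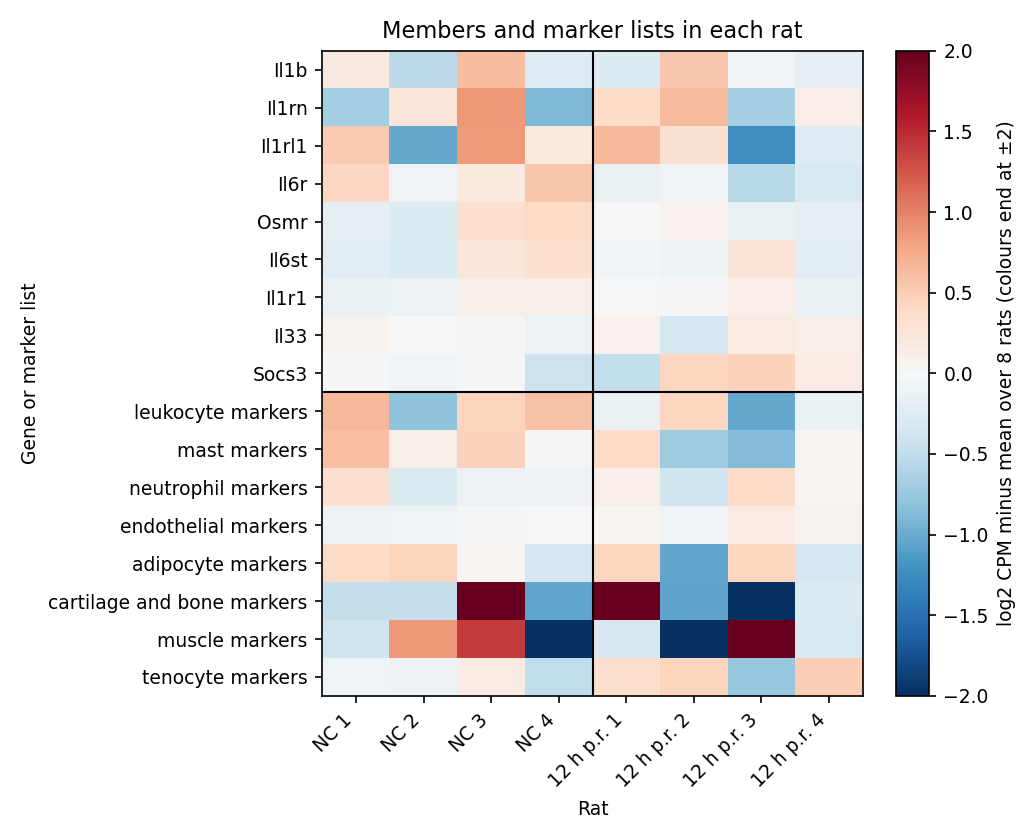
Log2 CPM of each tested gene (upper block) and mean log2 CPM of each marker list (lower block), minus the mean over the 8 rats, with rats in columns and NC left of the vertical line; colours end at ±2. *Il1rl1* and *Il6r* are low in 12 h p.r. replicate 3, the rat with the lowest leukocyte markers and the highest muscle markers.

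The wider pathways were described by role. Beside the members, 113 gene symbols were listed, of which 107 were in the table and 87 were tested. By the edgeR test, 0 of the 87 passed an adjusted p of 0.05 (Benjamini-Hochberg, lowest value 0.385). At an unadjusted p under 0.05 there were 11 genes (12.6%), of which 5 were above NC and 6 were below it, beside 9.51% of all genes. The groups did not overlap in CPM for 3 of the 87 genes, and for 6.06% of all genes tested. DESeq2 called 1, *Ccl2*. The fitted direction was higher for 48 and lower for 39, with a median log2 fold change of 0.04.

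On the IL-1 side, the other ligands were mostly silent. Of 8 listed, *Il1a*, *Il1f10* and the 4 genes of the IL-36 group did not pass the filter. *Il18*, which like *Il1b* is matured by inflammasomes, had 9.53 ± 3.37 CPM at 12 h p.r. and 12.8 ± 3.62 CPM in NC (SD, n = 4 each; log2 fold change −0.43, standard error 0.29), and its antagonist *Il18bp* had 14.6 and 13.8 CPM. Of the 6 other receptors, 5 were below NC and 1 was above, 0 of them at an unadjusted p under 0.05. The accessory chain *Il1rap*, which IL-1 receptor type 1 needs to signal, had 9.71, 9.09, 9.40 and 8.73 CPM at 12 h p.r. and 11.1, 8.83, 14.0 and 12.7 CPM in NC. In NC, 3 of the 4 rats were above all running rats, and the log2 fold change was −0.34 (standard error 0.16, unadjusted p = 0.0604, adjusted p = 0.544). *Il1rl2* had 1.01 and 1.87 CPM (log2 fold change −0.93, standard error 0.44, adjusted p = 0.548), and the inhibitory receptor *Sigirr*, the most abundant of the 6, had 20.8 and 22.2 CPM. Among 7 tested genes of inflammasome maturation, 2 were higher and 5 lower, again 0 at an unadjusted p under 0.05, with *Gsdmd*, the pore protein, at 26.2 and 22.2 CPM and *Casp4*, an inflammatory caspase, at 39.5 and 47.7 CPM.

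In the IL-1 signal chain, all 20 listed genes were tested, and 2 had an unadjusted p under 0.05 with groups that did not overlap. Over all genes tested, 9.51% had such a p and 6.06% had groups that did not overlap. *Tab1*, an adaptor that activates the kinase TAK1, had 40.2, 34.0, 37.1 and 36.4 CPM at 12 h p.r. and 30.1, 26.5, 30.7 and 25.3 CPM in NC. The running rats were all above the NC rats, with a log2 fold change of 0.39 (standard error 0.10, unadjusted p = 0.00293, adjusted p = 0.402). *Irak3*, a decoy kinase that restrains the chain, had 62.3, 55.6, 50.9 and 58.0 CPM at 12 h p.r. and 71.0, 85.5, 65.0 and 71.0 CPM in NC. Here the running rats were all below, with a log2 fold change of −0.37 (standard error 0.11, unadjusted p = 0.00724, adjusted p = 0.432). The most abundant of the 20, *Nfkbia*, the inhibitor of NF-κB that NF-κB itself induces, had 103 ± 9.99 CPM and 142 ± 50.5 CPM (SD, n = 4 each), the NC mean being raised by 218 CPM in replicate 4.

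On the IL-6 side, *Ebi3*, *Il11*, *Il27* and *Osm*, the ligand of *Osmr*, had too few reads to be tested, and of the 4 other ligands tested *Ctf1*, cardiotrophin, was the most abundant, at 13.9 and 15.4 CPM. *Lif* had 0.960 CPM at 12 h p.r. and 1.26 CPM in NC. Of 7 other receptors and sheddases tested, 5 were higher and 2 lower. *Lifr*, the chain for leukemia inhibitory factor, had 87.9, 63.4, 91.5 and 51.9 CPM at 12 h p.r. and 91.6, 79.2, 130 and 142 CPM in NC. The groups overlapped, with the highest values in NC replicates 3 and 4, and the log2 fold change was −0.59 (standard error 0.24, unadjusted p = 0.0347, adjusted p = 0.492). *Il27ra*, the IL-27 receptor chain, was low but did not overlap, with 2.30 CPM at 12 h p.r. and 1.49 CPM in NC (log2 fold change 0.63, standard error 0.25, adjusted p = 0.490), and *Il11ra1* was abundant at 148 and 143 CPM.

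Of the 15 JAK-STAT genes tested, 9 were higher and 6 lower, and 2 had an unadjusted p under 0.05, beside 9.51% of all genes tested. *Socs2*, a feedback inhibitor best known from growth hormone signalling, had 21.9, 28.9, 23.4 and 24.3 CPM at 12 h p.r. and 28.2, 39.9, 33.7 and 40.1 CPM in NC. The groups met only through 12 h p.r. replicate 2 and NC replicate 1, and the log2 fold change was −0.53 (standard error 0.14, unadjusted p = 0.00437, adjusted p = 0.426), opposite in sign to that of *Socs3*. *Stat5b* had 40.7 and 31.0 CPM (log2 fold change 0.39, standard error 0.16, adjusted p = 0.494), and *Jak1*, the most abundant of the list, had 239 and 261 CPM.

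The target genes of NF-κB held the largest fitted difference of the pathway genes. *Ccl2*, the monocyte chemokine, had 23.0, 111, 51.2 and 82.4 CPM at 12 h p.r. and 18.1, 16.1, 25.1 and 13.9 CPM in NC. Replicates 2, 3 and 4 of the running group were above every NC rat, and replicate 1 lay within the NC range. The means were 66.9 ± 38.0 CPM (SD, n = 4) and 18.3 ± 4.83 CPM (n = 4), with a fitted log2 fold change of 1.87 (standard error 0.42, unadjusted p = 0.00170, adjusted p = 0.385). Its adjusted p passed the threshold with DESeq2 (log2 fold change 1.86, adjusted p = 0.00279) and without the 3 rats rich in muscle or cartilage and bone RNA (log2 fold change 2.59, adjusted p = 0.0244). The latter fit kept running rats at 111 and 82.4 CPM and NC rats at 18.1, 16.1 and 13.9 CPM. It thus left out replicate 1 of the running group, the running rat within the NC range. Of the 14 targets tested, 9 were higher and 5 lower, with a median log2 fold change of 0.16. At an unadjusted p under 0.05 there were 4, beside 9.51% of all genes tested, and the 3 other than *Ccl2* were lower. These were *Nfkbiz*, an atypical inhibitor of NF-κB, at 19.6 and 27.9 CPM (log2 fold change −0.51, standard error 0.18), and *Tnfaip6* (−0.46) and *Vcam1* (−0.77), the last 2 of which are named because their values had been seen. *Sod2*, the most abundant target, had 165 and 150 CPM.

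Of the 12 STAT3 targets tested, 7 were higher and 5 lower, with a median of 0.21. *Bcl3*, a nuclear regulator of NF-κB, was the single gene at an unadjusted p under 0.05, beside 9.51% of all genes tested. *Bcl3* had 15.8 ± 4.29 CPM at 12 h p.r. and 10.8 ± 1.33 CPM in NC (SD, n = 4 each; adjusted p = 0.486). It had 9.45 CPM in 12 h p.r. replicate 1, within the NC range, and 16.7 to 18.6 CPM in the other running rats, above every NC rat. *Ccl2* had the same arrangement, and in *Socs3* replicate 1 of the running rats was below every NC rat. *Lrg1*, an acute phase glycoprotein, had 186 and 153 CPM, and *Timp1*, the inhibitor of matrix metalloproteinases, had 135 and 117 CPM.

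**Figure D5:**
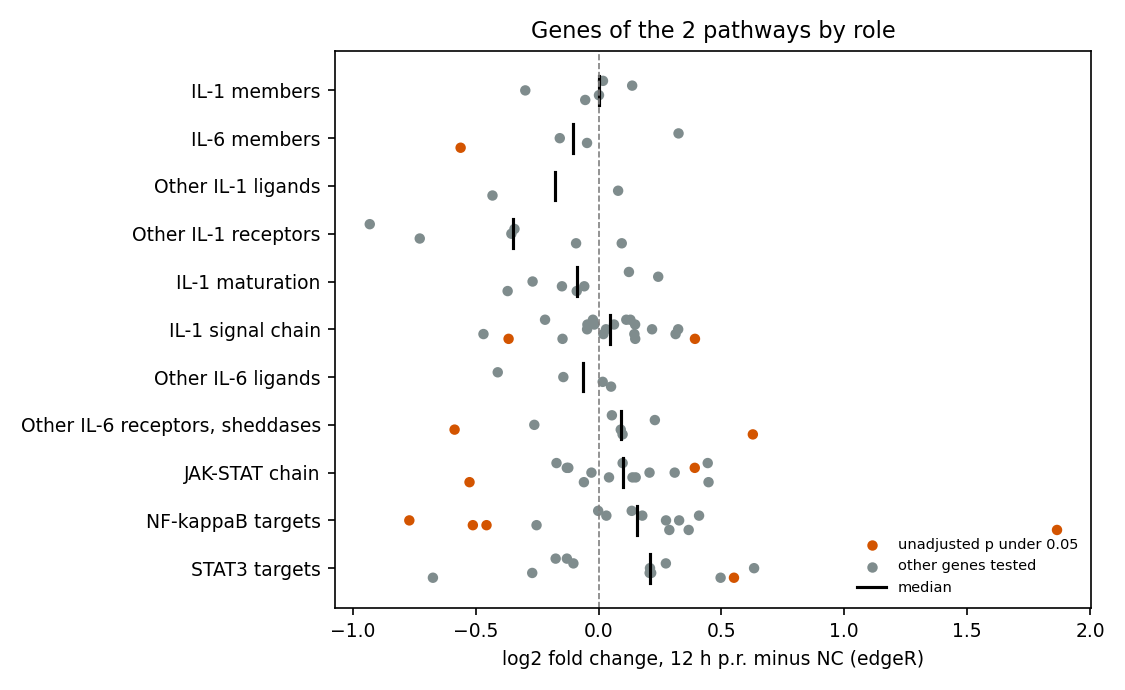
Fitted log2 fold change (12 h p.r. minus NC, edgeR) of each tested gene of the IL-1 and IL-6 pathways, by role, with a vertical bar at the median of each list and orange points for an unadjusted p under 0.05. The list medians run from −0.35 to 0.21, and *Ccl2* stands alone at 1.87.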

How the data were processed

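RNA sequencing was done on the right Achilles tendons of 4 rats at 12 h p.r. and 4 NC rats, grouped by their sample labels. According to the methods, the authors mapped stranded reads on Rnor_6.0 (HISAT2 2.1.0) and counted reads on genes (featureCounts 1.6.3); how multiply matching reads were counted and whether counting used the strand are not given in the sources used here. The authors deposited unnormalized counts, in whole reads. In the deposited FPKM, each count had been divided by the length of the gene and by a factor of the library that equalled its DESeq2 size factor. Fold changes and p-values from the authors' own comparison (DESeq2 1.30.1) were also deposited and were not used.

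Counts were filtered with filterByExpr, scaled by TMM, and tested with glmQLFit and glmQLFTest of edgeR 4.0.16 in R 4.3.3, with Benjamini-Hochberg adjustment over 13937 genes at a threshold of 0.05. CPM are TMM-scaled. Standard errors were taken from the quasi-likelihood F statistic. Exact permutation tests were made on log2(CPM + 0.5) with all 70 ways to split the rats. Levels were compared between genes in FPKM only. Alternatives were the DESeq2 1.42.0 Wald test, other scalings and filters, limma 3.58.1 on log2 FPKM, a replicate block, other thresholds, and the omission of rats. The labels do not say more about the origin of the rats. The p-values set the difference between the groups against the spread between these samples only. Total counts of 7350509 to 12951397 per rat leave few reads for genes near 1 CPM.

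The 10 genes, the pathway lists and the marker lists were chosen with earlier results of these data known. Beside the 10 genes, the text names from each pathway list every gene past an adjusted p of 0.05, or else the 2 tested genes with the smallest unadjusted p, and the one with the highest mean FPKM, and for each tested member genes among the 2 most correlated with it over the rats. Motifs were searched in RefSeq promoter windows of GRCr8. Marker genes served to describe the tissue and other cell types. Gene coordinates in Rnor_6.0 and protein sequences were not used here.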

Additional observations from a re-analysis of the deposited data

Results flagged for a closer look

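In 36 groups of 4 rats, made up of the 9 tested genes, the 8 marker lists and the total counts in each group, the gap between the most extreme rat and its neighbour was set against the range of the group by Dixon's test. A single rat stood apart in 4 of them, where chance gives about 1 in 20 groups, or 1.8. The same 8 rats recur in these groups, which are therefore not independent, so the 4 cannot be judged against 1.8. *Il33* at 12 h p.r. had its lowest rat, replicate 2, at 7.159 on the log2(CPM + 0.5) scale, and the other rats of the group lay from 7.577 to 7.661. The mean log2 CPM of the leukocyte markers was 5.268 in NC replicate 2 and from 6.517 to 6.728 in the other NC rats. That of the cartilage and bone markers was 6.922 in NC replicate 3 and from 2.384 to 2.943 in the other NC rats. That of the tenocyte markers was 8.607 in 12 h p.r. replicate 3 and from 9.716 to 9.856 in the other running rats. The part of these rats in the differences between the groups was not tested beyond the fits that left them out.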

How the results depend on the processing

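No alternative brought any of the 9 genes past an adjusted p of 0.05 in 153 recomputed fold changes, of which 125 kept their sign and 28 reversed it, all of the latter in genes whose log2 fold change lay within 0.14 of 0. By unadjusted p the count of members was 1. Among the other pathway genes, the count went from 0 to 1 with DESeq2 and to 1 without the 3 rats rich in muscle or cartilage and bone RNA, and was 11 by unadjusted p. Over all genes it went from 1 to 95 with DESeq2, 2 without the 3 rats, 0 with limma on log2(FPKM + 1) or log2(FPKM + 0.1), 0 with a fold change of at least 2, 1326 by unadjusted p, and 0 to 0 without each rat in turn. The replicate numbers did not pair the rats (correlations of same-numbered deviations 0.07, −0.19, 0.12 and 0.08, with 1 of 4 rats best matched by its own number), and the replicate block gave 0 members, 0 other pathway genes and 0 genes in all (974 by unadjusted p). The block changed no call of a member.

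Reversed log2 fold changes were as follows. Leaving out 1 rat at a time gave −0.28 to 0.21 for *Il1b*, −0.10 to 0.61 for *Il1rn*, −0.0348 to 0.12 for *Il33*, −0.0457 to 0.0477 for *Il1r1* and −0.16 to 0.0636 for *Il6st*. Without the 3 rats, *Il1b* was at 0.39, *Il33* at −0.0847 and *Il1r1* at −0.0185. *Il33* was at −9.13e-05 and −0.00025 in the 2 limma fits. *Il1r1* was at −0.0066 with DESeq2, −0.00499 with relative log expression factors, −0.00395 with upper-quartile factors, −0.00532 without the filter, and −0.00252 and −0.00257 with limma. The cause was not tested. *Il6*, tested only without the filter (log2 fold change −0.09) or with limma (0.01 and 0.04), was limited by depth. *Il1b*, *Il1rn* and *Il1rl1* had 203 to 396 reads over the 8 rats, and the spread between rats exceeded that from counting in each.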
